A study of Mus musculus with 267 samples.

Results

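The basal-only PU.1 sites of C57 macrophages were the peaks of the deposited basal PU.1 list that no peak of the 24 h IL-4 PU.1 list touched by even 1 bp. They numbered 12661 of the 85916 basal peaks (14.7%). The other 73255 peaks are called retained below, and 17053 of the 90308 peaks of the 24 h list touched no basal peak and are called gained. The sites were selected on the PU.1 lists themselves, so their PU.1 values in C57 are given as a description without a test.

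ChIP-seq was measured in bone marrow-derived macrophages (BMDMs), which are marrow cells grown in culture with macrophage colony-stimulating factor, from 5 inbred mouse strains, untreated (basal) or given IL-4 at 20 ng/mL. C57 cells were from C57BL/6J mice and were sampled before IL-4 and at 1, 6 and 24 h, while cells of SPRET/EiJ (SPRET), NOD/ShiLtJ (NOD), BALB/cJ (BALB) and PWK/PhJ (PWK) mice were sampled before and at 24 h. None of these strain samples carried an engineered allele. Egr2 fl/fl cells and LyzM-Cre Egr2 fl/fl cells were sampled before and 24 h after IL-4. Both of these genotypes carried the floxed Egr2 alleles, and Cre was driven by a myeloid gene, so deletion was limited to cells that had used that promoter. The deletion of Egr2 itself was not checked here. Each factor list stood for a group of 2 libraries, H3K27ac, H3K4me2 and H3K4me3 had 2 libraries a group, and RNA polymerase II (Pol II) in C57 had 4 basal and 3 IL-4 libraries. No source used here says whether the libraries came from separate animals, so p-values measure only the spread between these libraries. As a check of the cell type, an H3K27ac region lay at the start of 7 of 7 macrophage marker genes, with basal means from 190 to 800 normalized tags and 24 h means from 78.6 to 427. Of 10 T cell, B cell, NK cell and neutrophil markers, 3 had a region, and the highest was S100a8 at 37.4 tags in the basal mean and 40.1 at 24 h.

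PU.1, the product of Spi1, is an ETS-family factor that macrophages need to form, and it binds purine-rich DNA and opens chromatin together with partners such as C/EBP and AP-1 factors. IL-4 acts through its receptor on STAT6, and EGR2 and PPARγ are among the factors that carry the later response. H3K27ac marks active enhancers and promoters, H3K4me2 marks both, H3K4me3 is highest at promoters, and Pol II transcribes from either kind of element.

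The sequences of 9 basal-only sites are given first, because the results below return to each of them. All are 200 bp around the peak centre, read 5′ to 3′ on the plus strand of the RefSeq GRCm38.p6 (mm10) genome, with the letters of the PU.1/ETS core GGAAGT in capitals where it or its reverse complement occurred. The first set holds sites with high basal PU.1 counts. They are the Sh3tc1 site at chr5:35729234-35729433, the Cd180 site at chr13:102695207-102695406, the Vcpip1 site at chr1:9748482-9748681 and the Ccr1 site at chr9:123931708-123931907.
Sh3tc1: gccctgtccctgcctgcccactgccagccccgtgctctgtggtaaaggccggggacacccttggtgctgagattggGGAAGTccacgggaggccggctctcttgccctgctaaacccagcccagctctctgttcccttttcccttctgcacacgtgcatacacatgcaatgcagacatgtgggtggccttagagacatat
Cd180: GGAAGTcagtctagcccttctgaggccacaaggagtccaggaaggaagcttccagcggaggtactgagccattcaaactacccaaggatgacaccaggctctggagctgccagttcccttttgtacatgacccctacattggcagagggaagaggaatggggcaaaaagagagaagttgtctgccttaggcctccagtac
Vcpip1: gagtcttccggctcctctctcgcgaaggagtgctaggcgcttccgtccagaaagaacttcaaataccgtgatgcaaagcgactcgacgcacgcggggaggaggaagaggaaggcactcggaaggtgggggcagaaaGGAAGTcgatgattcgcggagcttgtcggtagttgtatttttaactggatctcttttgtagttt
Ccr1: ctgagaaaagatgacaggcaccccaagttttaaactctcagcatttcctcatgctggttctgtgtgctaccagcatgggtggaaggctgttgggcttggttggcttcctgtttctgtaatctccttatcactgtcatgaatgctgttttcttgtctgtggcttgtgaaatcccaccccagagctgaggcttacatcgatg
The second set holds sites in regions where H3K27ac was far apart between basal and IL-4 libraries, and Cdh1, where PU.1 tags of other genotypes are given at the end. Ppcdc lay at chr9:57420752-57420951 and Icosl at chr10:78096648-78096847, both with less H3K27ac at 24 h. Mgl2 lay at chr11:70114705-70114904 and the Trpm3 intron site at chr19:22978901-22979100, both with more. The Cdh1 site lay at chr8:106612207-106612406.
Ppcdc: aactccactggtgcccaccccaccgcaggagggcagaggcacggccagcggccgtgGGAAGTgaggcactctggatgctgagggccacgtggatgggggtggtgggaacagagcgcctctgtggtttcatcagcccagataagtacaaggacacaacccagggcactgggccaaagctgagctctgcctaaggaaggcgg
Icosl: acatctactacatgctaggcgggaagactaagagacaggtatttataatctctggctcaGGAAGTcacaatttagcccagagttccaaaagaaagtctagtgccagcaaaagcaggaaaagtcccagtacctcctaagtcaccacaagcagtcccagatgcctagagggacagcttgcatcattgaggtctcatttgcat
Mgl2: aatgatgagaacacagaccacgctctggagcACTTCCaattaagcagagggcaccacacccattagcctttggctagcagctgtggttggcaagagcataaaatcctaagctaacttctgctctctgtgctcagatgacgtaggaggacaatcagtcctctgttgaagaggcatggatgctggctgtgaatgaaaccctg
Trpm3: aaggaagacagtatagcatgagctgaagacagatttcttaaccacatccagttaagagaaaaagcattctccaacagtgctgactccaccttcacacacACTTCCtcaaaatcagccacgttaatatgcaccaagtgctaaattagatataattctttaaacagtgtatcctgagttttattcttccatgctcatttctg
Cdh1: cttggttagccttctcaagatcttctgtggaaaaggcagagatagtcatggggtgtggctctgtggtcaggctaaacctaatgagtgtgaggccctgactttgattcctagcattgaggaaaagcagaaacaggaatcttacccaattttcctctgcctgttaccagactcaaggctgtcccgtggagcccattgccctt
The core occurred once in 7 of these windows and not at all at Ccr1 and Cdh1, so high-count sites were found both with and without these exact letters.

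Across all basal-only sites the core GGAAGT, searched on both strands, lay in 51.5% of the 200 bp windows, against 58.7% of retained, 46.3% of gained and 57.7% of all basal windows. The longer GAGGAAGT, which contains the core, lay in 17% of basal-only, 20.2% of retained and 19.7% of all basal windows. Among the weakest quartile of basal peaks by count the shares were near each other, at 51.2% of basal-only and 52.5% of retained windows for the core and 17.4% and 16.7% for the longer form. Letters of partner factors were rarer at basal-only sites within that weakest quartile. TGANTCA (AP-1) lay in 7.73% of basal-only and 11.1% of retained windows there, TTGCNNAA (C/EBP) in 8.75% and 11%, GTGGGNG (EGR) in 12.3% and 16.4%, and the STAT6 letters, TTC and GAA with 4 bases between, in 4.78% and 6.65%. Over all basal windows these 4 motifs had shares of 11.2%, 10.7%, 15.8% and 5.88%, and in gained windows shares of 14.5%, 12.3%, 23.5% and 9.58%. At or above the list median the EGR letters went the other way, with GTGGGNG in 18.1% of basal-only and 16.6% of retained windows. GCGTGGG lay in 2.42% and 1.61% there, while TGANTCA stood at 8.54% and 12.2%. Over all basal windows GCGTGGG had a share of 1.49%. With windows of 100 bp at that strength, GTGGGNG no longer went the other way, at 8.28% of basal-only and 8.95% of retained windows. GCGTGGG stood at 1.15% and 0.752%, but its basal-only matches were few, at 19 windows of 200 bp and 9 of 100 bp. Median GC content was 47.0% in basal-only and 47.5% in retained windows, and 49.5% and 48.0% at or above the list median. A match is a run of letters and not a measured binding site, and windows share sequence families, so no test was made.

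The basal-only sites were mostly the weak end of the basal list. The deposited peak count, the authors' tag value for a peak whose scale is not stated, had a median of 35 (quartiles 29 and 44, range 24 to 481) at basal-only sites and 85 at retained sites. The top score of 1000 was held by 21.2% of basal-only and 80.2% of retained peaks. Cut into deciles by count, 59.0% of the weakest decile was basal-only, then 37.3%, 23%, 12.8%, 6.44%, 3.89%, 2.37%, 1.37% and 1.04%, and 0.268% of the strongest decile. Still, 785 basal-only sites (6.2%) had a count at or above the list median of 72, and 23 lay in the strongest decile. These 785 are called strong basal-only sites below.

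**Figure D1:**
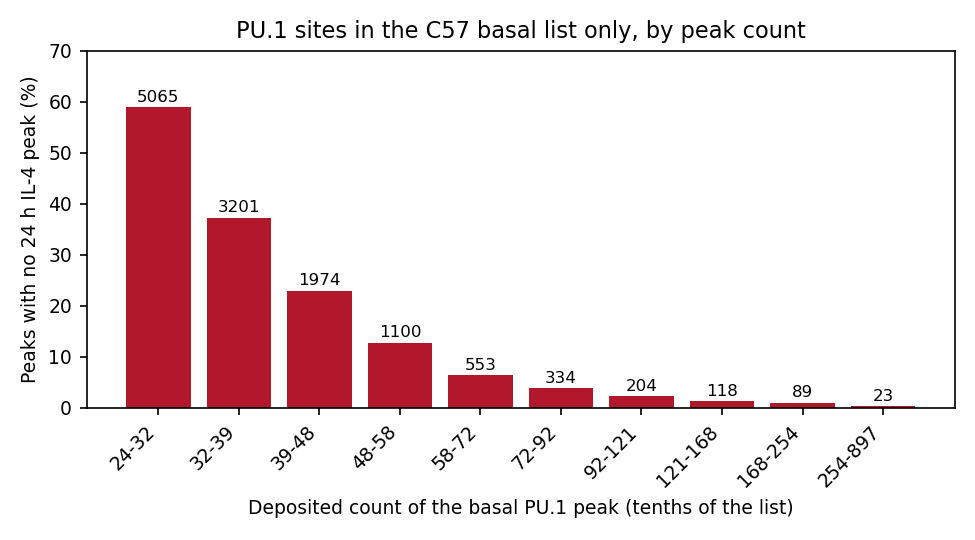
Share of C57 basal PU.1 peaks with no 24 h IL-4 peak (y axis, percent) in deciles of the basal list ordered by deposited peak count (x axis, the count range of each decile), with the number of basal-only peaks above each bar. The share is 59.0% in the weakest decile and 0.268% in the strongest.

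Most basal-only sites were well apart from any 24 h peak. The gap to the nearest one had a median of 3075 bp, and 9335 sites (73.7%) were more than 1000 bp away. A gap of 500 bp or less was found for 1675 sites (13.2%) and of 100 bp or less for 118 (0.932%). At the edge of the rule, the nearest miss was an intronic peak in Tubb6, with a count of 125 and a gap of 1 bp. Of the retained peaks, 20 overlapped a 24 h peak by 10 bp or less.

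By the GENCODE annotation, 45.9% of basal-only sites lay in introns, 32.2% between genes and 16.2% within 1000 bp of a gene start, with the rest in exons and UTRs. The retained shares were 47.9%, 30.8% and 15.8%, close to these with all peak strengths pooled. Gained sites were promoter-proximal in only 10.2%. Within the weakest quartile by count, basal-only sites were within 1000 bp of a start in 14.2% of cases and retained sites in 11.6%. Of strong basal-only sites, 27% were within 1000 bp of a start, and the retained share at that strength was not computed. The comparisons of marks below were not matched for place. The 5 with the highest counts were an intronic peak nearest Gm15650 and, among coding genes, Sh3tc1 (481), an intronic peak in Cd180 (417), the Pold4 promoter (398), the Vcpip1 promoter (389) and an intronic peak in the noncoding gene 2810404F17Rik (370). The authors annotated the 1000 bp region holding the Sh3tc1 peak as a promoter, whereas a single start per gene was used here. CD180 is a receptor that tempers Toll-like receptor signalling, Pold4 encodes a DNA polymerase δ subunit and Vcpip1 a deubiquitinase. The sites at Sh3tc1, Pold4, Vcpip1 and 2810404F17Rik each overlapped a basal peak in all 4 other strains.

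The basal-only sites were spread thinly over many genes. Their nearest starts belonged to 9409 of the 26955 genes with a basal peak, and 7080 of those genes had a single one. Of 11229 genes with 3 or more basal peaks, 22 had no retained peak. The 6 gene lists are read against the 14.7% of all basal peaks that were basal-only. At macrophage lineage genes the count was 22 of 148 basal peaks (14.9%), and Adgre1, which encodes F4/80, held 6 of its 24, the strongest at 78 against 525 for the strongest basal peak near that gene. The Csf1r site had a count of 130 and lay upstream of the start of the gene for the macrophage colony-stimulating factor receptor, which had 14 basal peaks, 2 of them basal-only. Interferon-stimulated genes had 9 of 57 (15.8%), and the highest was an exonic Ifi44 peak with a count of 65. Pattern recognition receptor genes had 18 of 139 (12.9%), with 4 of 16 at Tlr2 and a promoter peak at Tlr13, a receptor for bacterial ribosomal RNA, at 126. Chemokine receptor genes had 10 of 81 (12.3%), including Ccr1 at 327 and Ccr2 at 273. NF-κB and inflammatory genes had 16 of 140 (11.4%), among them an intronic Nlrp3 peak at 100 and peaks of 30 to 49 near Il12b, Il1b, Il6, Ccl3, Ccl4, Cxcl2 and Tnfaip3. IL-4 and alternative activation genes had the lowest share, 11 of 146 (7.53%), beside 54 gained peaks. Pdcd1lg2, which encodes the checkpoint ligand PD-L2, had a basal-only intronic peak at 227 and 10 gained peaks, and Cdh1, which encodes E-cadherin, had a basal-only intronic peak at 197, the strongest of its 3 basal peaks, and 6 gained peaks. The basal-only Pdcd1lg2 peak lay 162 bp from a 24 h PU.1 peak, and the Nlrp3 peak 240 bp from one. In every list the median count of the basal-only peaks (31 to 42.5) was below that of all its basal peaks (60 to 105).

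Peaks of C/EBPβ, EGR2, STAT6 and PPARγ were less frequent at basal-only than at retained sites. In basal cells 14.5% of basal-only sites (1840) overlapped a peak of at least 1 of these 4 factors, against 42.5% of retained sites. STAT6 was at 8.51% and 35%, C/EBPβ at 4.9% and 16.2%, EGR2 at 3.67% and 6.78%, and PPARγ at 1.97% and 6.76%. Part of this went with peak strength, as strong basal-only sites overlapped basal STAT6 peaks in 31.2% and C/EBPβ peaks in 16.9% of cases. Retained sites at or above the list median did so in 51.0% and 21.7%, so the STAT6 gap stayed wide at that strength. There PPARγ was at 7.01% of basal-only and 9.59% of retained sites, while EGR2 went the other way, at 9.81% and 8.78%. Within the weakest quartile of basal PU.1 peaks, basal-only and retained sites stood closer, at 5.65% and 8.31% for STAT6, 3.79% and 7.07% for C/EBPβ, 2.86% and 3.06% for EGR2 and 1.47% and 2.34% for PPARγ.

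At 24 h of IL-4 other factors were listed at basal-only sites although PU.1 was not. At least 1 of the 4 factors was listed at 2741 basal-only sites (21.6%), against 55.7% of retained sites. PPARγ went from 249 sites in basal cells to 1179 at 24 h (9.31%, retained 28.8%), EGR2 from 465 to 1058 (8.36%, retained 21.8%) and C/EBPβ from 621 to 1036 (8.18%, retained 27.8%). STAT6 did not follow, with 1078 sites in basal cells, 491 at 1 h, 528 at 6 h and 1003 at 24 h (7.92%, retained 40.0%). At 1 h and 6 h the STAT6 shares were 3.88% and 4.17% of basal-only and 24.5% and 25.4% of retained sites. Both sets were thus below their basal shares given above. The STAT6 list was also shorter then, with 24376 and 23884 peaks, so the dip was not limited to basal-only sites. The factor lists themselves grew at 24 h, from 7627 to 39088 peaks for PPARγ, from 8437 to 29407 for EGR2, from 18043 to 37499 for C/EBPβ and from 30589 to 39537 for STAT6. In the weakest quartile of PU.1 peaks the 24 h gap was wider than the basal one, at 5.64% of basal-only against 16.2% of retained sites for STAT6, 6.87% against 15.6% for C/EBPβ, 7.73% against 15% for PPARγ and 6.63% against 11.2% for EGR2.

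Where another factor was already there, it mostly stayed listed without PU.1. Of basal-only sites with a basal peak of the factor, 94.2% kept an EGR2 peak at 24 h (retained sites 96.3%), 89.9% a C/EBPβ peak (96.0%) and 79.1% a PPARγ peak (89.6%). STAT6 differed most, with 511 of 1078 (47.4%) still listed against 80.6% at retained sites. Only 7 basal-only sites held basal peaks of all 4 factors. The 3 strongest of them were near Ap5s1 (count 174), 4930459C07Rik (89) and Rps15a-ps8 (84), and all 3 kept peaks of all 4 factors at 24 h.

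**Figure D2:**
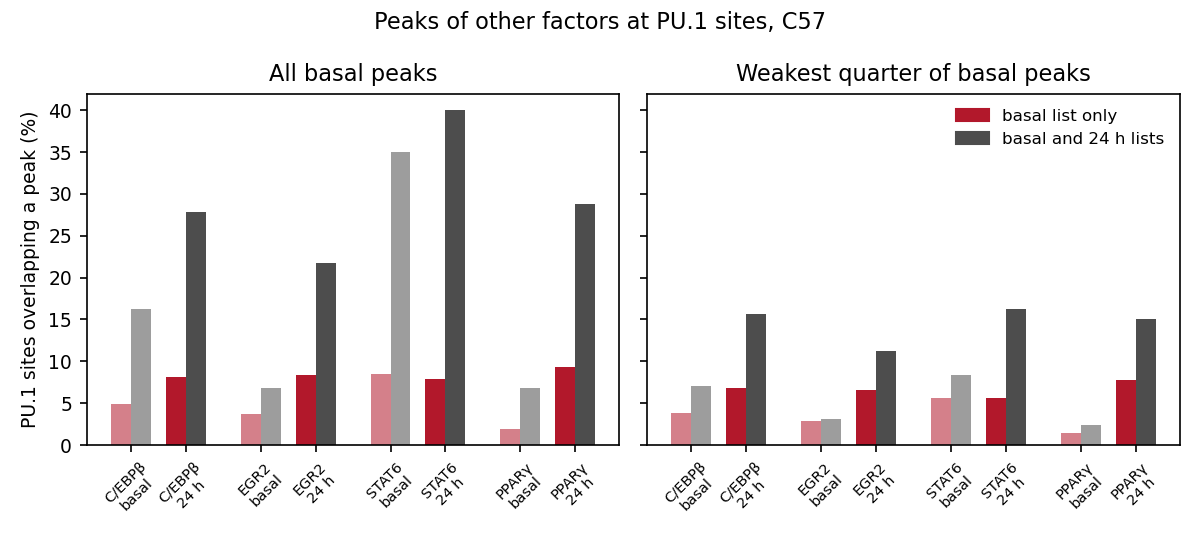
Share of C57 PU.1 sites that overlapped a peak of C/EBPβ, EGR2, STAT6 or PPARγ (y axis, percent), for basal-only sites (red) and retained sites (grey), with pale bars for the basal list of the factor and full bars for its 24 h list. The left panel holds all basal PU.1 peaks and the right panel their weakest quartile by count, where basal EGR2 shares were 2.86% and 3.06% but 24 h STAT6 shares were 5.64% and 16.2%.

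The other strains give the same measure in libraries that the selection did not use. A C57 basal-only site had a basal PU.1 peak in BALB in 54.9% of cases, in NOD in 47.5%, in SPRET in 46.8% and in PWK in 41%, against 76.1% to 90.6% for retained sites. Of those bound in the basal state, 3781 of 6945 (54.4%) had no 24 h peak in BALB, 2851 of 5192 (54.9%) in PWK, 2707 of 5923 (45.7%) in SPRET and 1703 of 6008 (28.3%) in NOD. C57 retained sites were without a 24 h peak in 8.53%, 13.7%, 12.6% and 3.11% of cases, and the whole basal list of each strain in 21.1%, 25.1%, 27.5% and 9.69%. In each of the 4 strains, sites that were basal-only in C57 were therefore basal-only more often than sites retained in C57. Within the weakest quartile of C57 counts the shares were 62.0% against 32.2% in BALB, 61.3% against 41.2% in PWK, 50.4% against 32% in SPRET and 33% against 13.6% in NOD. The order of the strains depended on list length. With basal and 24 h lists of equal length, the shares of all C57 basal-only sites were 50.5% in BALB, 43.4% in PWK, 32.5% in SPRET and 45.2% in NOD.

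Few sites were basal-only in every strain. Of 1751 C57 basal-only sites with a basal peak in all 5 strains, 51 (2.91%) had no 24 h peak in any strain and 454 (25.9%) had one in all 4 others. The corresponding count for C57 retained sites without a 24 h peak in the 4 others was 44 of 45325 (0.0971%). The strongest of the 51 were in the Lasp1 UTR (chr11:97800084-97800332, count 106), at the Bcl2l1 promoter (chr2:152831584-152831784, count 99) and at the start of Gm37954 (chr1:131378356-131378559, count 81). Lasp1 encodes an actin-binding protein and Bcl2l1 the survival factor BCL-XL.

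Many sites without a C57 24 h peak were bound at 24 h elsewhere. A 24 h peak in at least 1 other strain lay at 8833 basal-only sites (69.8%), and among strong basal-only sites at 87.8%, with 151 (19.2%) listed at 24 h in all 4 other strains. For retained sites the shares were higher, at 97.4% in at least 1 other strain and 54.5% in all 4. The Sh3tc1 and 2810404F17Rik sites and the Ccr1 and Csf1r sites were among these 151. Strong basal-only sites bound in the basal state of the other strain had no 24 h peak there in 35.5% (BALB), 33.5% (PWK), 26.7% (SPRET) and 24.9% (NOD) of cases, against 0.739% to 6.19% for retained sites at or above the list median. Most strong basal-only sites that were bound in another strain's basal cells thus kept a 24 h peak there. The lists are pooled over 2 libraries, and the depth of the PU.1 libraries is not in them, so whether depth or enrichment differed between the C57 basal and 24 h PU.1 libraries was not tested.

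**Figure D3:**
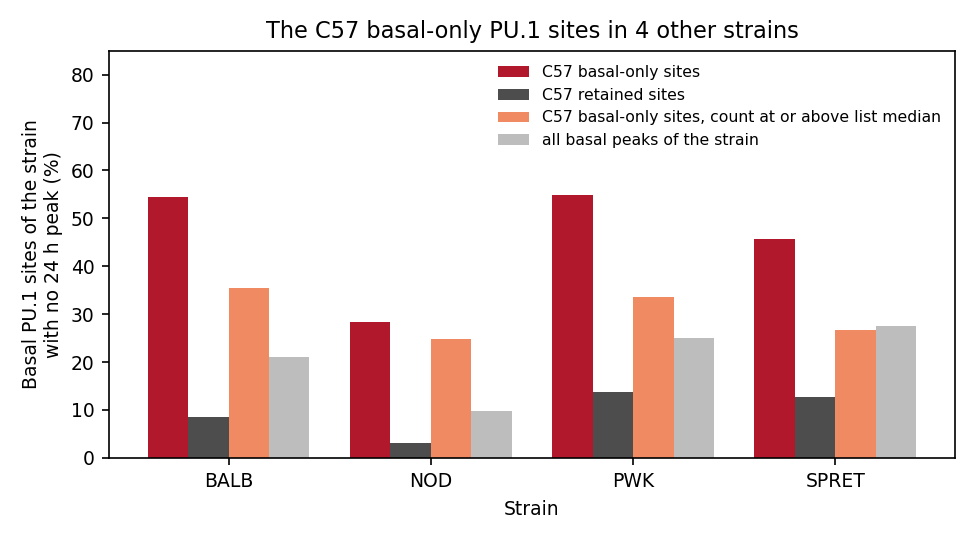
Share of basal PU.1 sites of BALB, NOD, PWK and SPRET without a 24 h peak in that strain (y axis, percent), for sites basal-only in C57, sites retained in C57, basal-only sites with a C57 count at or above the list median, and all basal peaks of the strain. Sites basal-only in C57 lie between 28.3% (NOD) and 54.9% (PWK), and retained sites between 3.11% and 13.7%. With lists of equal length, not drawn here, the basal-only shares were 45.2% in NOD and 32.5% in SPRET, so the order of strains changed.

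Chromatin was measured as tags in 1000 bp around open chromatin (ATAC-seq) centres, scaled by the authors to 10000000 tags per library. Of the basal-only sites, 3872 (30.6%) lay in such regions, against 53.9% of retained sites, and they touched 4195 of the 67742 C57 regions, some of which overlap each other. A region was called lower or higher by a fold rule applied to each mark alone, which asks for group means (plus 1 tag) at least 2.5-fold apart and at least 16 tags (8 for Pol II) in 1 group, and separately by limma with Benjamini-Hochberg adjustment over all regions.

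H3K27ac at regions with basal-only sites was lower after 24 h of IL-4, as it was at regions with only retained sites. The median level was 59.0 tags in basal and 37.3 in IL-4 cells, a median log2 change of -0.58, beside -0.53 at 39504 regions with retained sites only and -0.28 over all regions. By the fold rule 417 regions (9.94%) were lower and 53 (1.26%) higher, where all regions had 7.55% lower and 3.46% higher and retained-only regions had 10.5% and 2.61%. With scaling to the median ratio of the libraries, the counts were 175 lower (4.17%) and 93 higher (2.22%), against 3.22% and 5.23% of all regions. Tags summed over the regions, where overlapping regions count a tag more than once, came to 65.4% and 59.6% of a library's tags in basal cells. In the IL-4 libraries the sums came to 43.2% and 38.2%. The part of this difference in these medians was not tested beyond that scaling. Without a block, no region passed limma in either direction, among the members or among all regions (0.0% lower and 0.0% higher). At an unadjusted p under 0.05 there were 964 member regions (23%, all regions 22%). In simulated reads limma recovered 0 of 100 true 4-fold changes for this mark, so the lack of calls does not show a lack of change. With the replicate number as a block, which pairs same-numbered libraries, 1747 passed as lower (41.6%, all regions 29.6%) and 156 as higher (3.72%, all regions 8.47%). DESeq2 called 57 lower and 31 higher (1.36% and 0.739%, all regions 0.909% and 2.16%), and edgeR called 0 of the members and 0 of all regions. DESeq2 gave no adjusted p at 18417 of all regions, which count as not called in its shares.

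The difference from retained sites depended on the strength of the PU.1 peaks. Among regions whose PU.1 peaks were all in the weakest quartile, the 2077 with basal-only sites had 6.16% lower and 0.963% higher by the fold rule, while the 3476 with retained sites had 3.05% lower and 5.9% higher. Their basal medians were 26.8 and 18.7 tags and their median log2 changes -0.42 and -0.06. At or above the list median the shares were near each other, with 15.4% lower and 2.53% higher for basal-only and 12.7% and 2.05% for retained sites. Basal medians there were 144 and 70.7 tags and median log2 changes -0.75 and -0.63, so the starting levels were not matched. Of the 647 regions with a strong basal-only site, 105 were lower and 14 higher, with a median log2 change of -0.79.

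At the 5 sites with the highest PU.1 counts H3K27ac was present before and after IL-4. The Sh3tc1 region had 651 and 481 tags in basal and 307 and 249 in IL-4 libraries, the Cd180 region 836 and 568 against 405 and 232, and the Vcpip1 region 345 and 304 against 196 and 123. The Pold4 region nearest the start had 536 and 424 against 382 and 348, and the 2810404F17Rik region was lowest, with 95 and 157 against 72.2 and 62.4. Both basal libraries were above both IL-4 libraries at these 5 sites and at Ccr1, with 397 and 396 tags against 235 and 192, as they were in 46.6% of the member regions and 34.8% of all regions. With median-ratio scaling the log2 change of means at Pold4 went from -0.39 to -0.04, and at Pdcd1lg2, given next, from -0.16 to 0.19. Among list genes, Nlrp3, the sensor of an inflammasome, had 129 and 109 tags against 41.6 and 48.6, and Tlr13 had 373 and 313 against 144 and 153, while the groups overlapped at Pdcd1lg2, with 231 and 128 against 208 and 113. At the Lasp1 and Bcl2l1 sites, basal-only in all 5 strains, the libraries of the region that held the site had 564 and 505 against 296 and 313 and 404 and 364 against 246 and 183. None of these regions passed limma. Those at Nlrp3, Pdcd1lg2 and Lasp1 also held a 24 h PU.1 peak beside the basal-only one.

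The 4 falls with the largest ratio, among regions whose libraries did not overlap between groups, were near Rbm38, Icosl and Ppcdc. The intergenic region near Gm14453 and, among coding genes, Rbm38 (chr2:173061619-173062619) had 33.2 and 74.2 tags in basal and 3.4 and 4.59 in IL-4 libraries, an 11-fold difference of means. The intergenic region near Icosl (chr10:78095848-78096848), the gene for the ligand of the T cell costimulator ICOS, had 32.6 and 62.0 tags against 4.24 and 3.94, a 9.49-fold difference. Both basal libraries were above both IL-4 libraries at each. In an intron of Ppcdc, a gene of coenzyme A synthesis, 2 overlapping regions around the same site had 139 and 224 tags against 22.1 and 21 (chr9:57420398-57421398, 8.1-fold) and 187 and 277 against 30.6 and 26.2 (chr9:57420882-57421882, 7.92-fold). The Rbm38 region and both Ppcdc regions also held 1 retained PU.1 peak, and the Icosl region held no 24 h peak. The same order held, without overlap between basal and IL-4 libraries, in each other strain where a region lay within 500 bp, which was in all 4 for Rbm38, Icosl and the second Ppcdc region and in 3 for the first. In NOD and in PWK the 2 Ppcdc regions had identical values, so they are not separate observations there. At Icosl the strain values ran from 13.2 to 57.1 tags in basal and from 2.89 to 11.4 in IL-4 libraries.

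The 4 largest rises were near Marcks, Trpm3, Rmi2 and Mgl2, so that a missing 24 h PU.1 peak also occurred where H3K27ac was higher at 24 h. The intergenic region near 5930403N24Rik and, among coding genes, Marcks, which encodes an actin-linking substrate of protein kinase C (chr10:37145147-37146147), had 13.6 and 3.57 tags in basal and 191 and 39.4 in IL-4 libraries, a 12.1-fold difference. The Trpm3 intron region (chr19:22978768-22979768), nearest the coding start of Klf9, had 4.07 and 9.27 against 28.9 and 114, a 9.46-fold difference. The Rmi2 region (chr16:10857079-10858079) had 6.78 and 2.85 against 62.8 and 30.9, an 8.23-fold difference. The region between Gm12311 and Mgl2 (chr11:70114293-70115293) had 8.14 and 14.3 against 56.0 and 92.5, a 6.17-fold difference. Mgl2 encodes a lectin known as a marker of IL-4-activated macrophages. The Rmi2 region also held a 24 h PU.1 peak beside the basal-only one, and the other 3 regions held none. Both IL-4 libraries lay above both basal libraries in each region, and again in each other strain with a region there, which was 3 strains for Mgl2 and Rmi2, 2 for Trpm3 and NOD alone for Marcks. At Mgl2 the strain values were 5.15 to 13.3 tags in basal and 52.4 to 160 in IL-4 libraries. Single libraries moved some of these ratios. The log2 ratio at Marcks, 3.6 with all libraries, was 2.08 and 4.33 without IL-4 library 1 and 2 and 4.67 and 3.0 without basal library 1 and 2. At Trpm3, 3.24 with all, it was 3.91 and 1.96 without IL-4 library 1 and 2 and 3.84 without basal library 2. At Rmi2, 3.04 with all, it was 2.45 without IL-4 library 1 and 3.63 without basal library 1, and at Rbm38, -3.45 with all, it was -2.78 without basal library 2. Adjusted p-values from limma at these 8 regions were 0.106 to 0.127, so none passed.

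**Figure D4:**
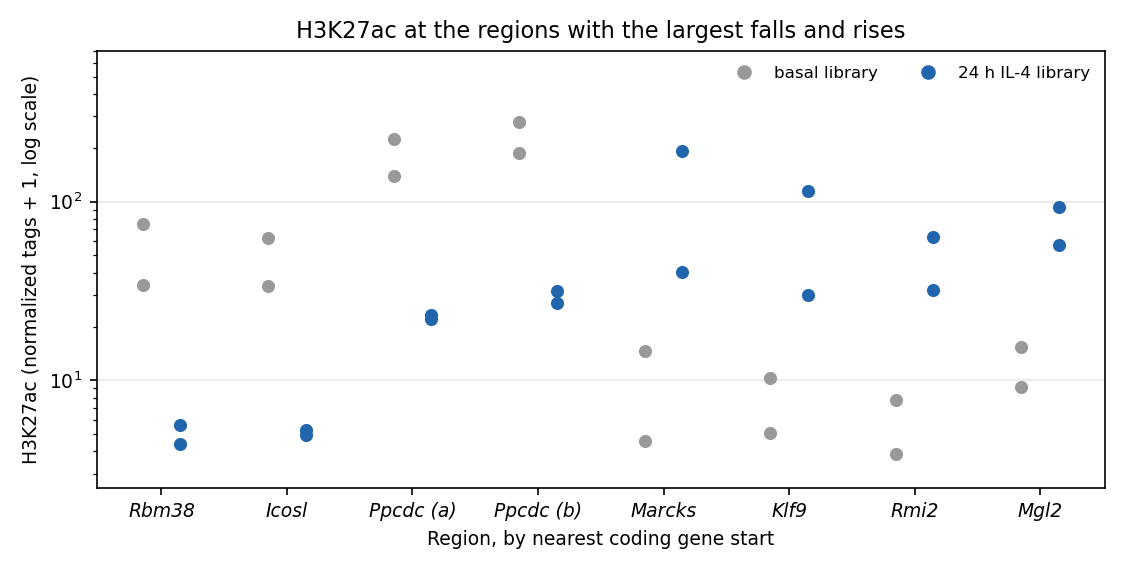
H3K27ac tags per library (y axis, normalized tags plus 1, log scale) at the 8 regions with basal-only PU.1 sites and the largest non-overlapping differences by the fold rule, with 2 basal (grey) and 2 IL-4 libraries (blue) each, named by the nearest coding gene start (Klf9 marks the Trpm3 intron region). The basal libraries lie above the IL-4 libraries at the first 4 regions and below them at the other 4.

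H3K4me2 was also lower at 24 h, but so was the median region. The member medians were 66.0 and 37.6 tags, a median log2 change of -0.83, beside -0.76 at retained-only regions and -0.69 over all regions. By the fold rule 83 regions (1.98%) were lower and 1 (0.0238%) was higher, where the shares over all regions were 1.27% and 0.387%. With median-ratio scaling the split turned round, with 0 lower and 15 higher (0.358%), against 0.0118% lower and 1.83% higher of all regions. Tags summed over the regions in the same way came to 18.9% of all tags in the second IL-4 library and 27.2% in the first. In the basal libraries the sums came to 37.1% and 37.2%. Only 4 member regions, near Pttg1, Zmynd15, Rhob and Pank1, passed limma as lower and 0 as higher, where 0.0576% and 0.179% of all regions did. At the Rhob region (chr12:8498662-8499662), in the exon of a gene for a small GTPase, the libraries had 140 and 128 tags in basal and 41 and 42.5 in IL-4 cells (log2 -1.66, SE 0.422, limma adjusted p = 0.0405), while H3K27ac there was 209 and 185 against 202 and 130, a log2 change of means of -0.25 that was 0.09 with median-ratio scaling. At the Pttg1 region the second IL-4 library had 8.05 tags and the first 71.2, against 107 and 90.8 in basal cells (adjusted p = 0.00805 by limma). The 4 calls were absent with median-ratio scaling, with edgeR, with DESeq2 and without the second IL-4 library or either basal library, and without the first IL-4 library 68.5% of the members (2875) and 51.6% of all regions were called.

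H3K4me3 and Pol II gave small shifts at the same regions. H3K4me3 had medians of 44.4 and 41.9 tags, far above the 4.5 and 6.21 of all regions and the 7.05 and 8.71 of retained-only regions, with median log2 changes of -0.21, 0.11 and 0.04. By the fold rule 12 member regions were lower (0.286%) and 20 higher (0.477%), against 0.179% and 0.639% of all regions. No region passed limma (0.0% lower and 0.0% higher of all regions), with 1232 member regions at an unadjusted p under 0.05 (29.4%, all regions 19.5%). DESeq2 called 20 lower and 8 higher (0.477% and 0.191%, all regions 0.205% and 0.211%), and edgeR 55 lower and 7 higher (1.31% and 0.167%, all regions 0.496% and 0.245%). DESeq2 gave no adjusted p at 39445 of the 67742 regions, and those count as not called. Its shares of members and of all regions are therefore not compared here. Pol II had medians of 35.5 and 30.8 tags and a median log2 change of -0.07, beside -0.03 over all regions. By the fold rule 92 regions were lower (2.19%) and 21 higher (0.501%), where all regions had 1.66% and 1.57%. Of the 417 regions with lower H3K27ac, 60 also had lower Pol II (14.4%, all regions 15.1%), and of the 53 with higher H3K27ac, 11 had higher Pol II (20.8%, all regions 27%).

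Pol II passed limma at 6 member regions, 4 lower and 2 higher, where 0.096% and 0.223% of all regions did. With the replicate number as a block, which pairs 3 basal with 3 IL-4 libraries, 23 passed as lower (0.548%, all regions 0.394%) and 4 as higher (0.0954%, all regions 0.415%). At the Ppcdc region starting at 57420882 Pol II was 80.5, 61.0, 85.2 and 52.7 tags in basal and 16, 14.6 and 11.5 in IL-4 libraries (log2 -2.22, SE 0.352, limma adjusted p = 0.0146). At the Marcks region it was 0, 1.6, 0 and 2.03 against 58.7, 32.3 and 8.98 (log2 4.01, SE 0.649, limma adjusted p = 0.0162). At the Gm15913 region (chr14:13361386-13362386), in an intron of Synpr with a basal-only peak of count 225 and 1 retained peak, it was 20.6, 35.3, 28.9 and 32.4 against 10.7, 3.64 and 2.57 (log2 -2.36, limma adjusted p = 0.0471). At the Ear-ps2 region (chr14:44047973-44048973) it was 0, 0, 5.36 and 0 against 14.7, 13.2 and 18 (log2 3.35, limma adjusted p = 0.041). The groups did not overlap at these 4 regions. The calls at Ppcdc and Marcks were absent without IL-4 library 1 or 2 or without basal library 3 or 4. The calls at Synpr and Ear-ps2 were absent with edgeR (at Ear-ps2 also with DESeq2), without any single IL-4 library and without basal library 2 or 4, and the call at Synpr also without basal library 3 and with the replicate block.

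The time course, which used the same basal and 24 h H3K27ac libraries over 77955 regions, placed the lowest H3K27ac at 1 h. The 4751 regions with basal-only sites had median log2 changes of -0.94 at 1 h, -0.35 at 6 h and -0.56 at 24 h, beside -1.0, -0.39 and -0.5 at retained-only and -0.63, -0.14 and -0.22 at all regions. limma called 478 lower (10.1%) and 16 higher (0.337%) at 1 h, where all regions had 8.36% and 1.37%. At 6 h it called 127 lower (2.67%) and 20 higher (0.421%), against 2.46% and 2.67%. At 24 h it called 21 lower (0.442%) and 9 higher (0.189%), against 0.327% and 1.13%. The share called lower was near the background at each time, and the share called higher was below it. The counts moved with single libraries. At 1 h there were 1826 calls without 1 h library 1 (38.4%, all regions 28.1%), 84 and 85 without 6 h libraries 1 and 2 (1.77% and 1.79%, all regions 1.88% and 1.92%), 185 without basal library 1 (3.89%, all regions 4.67%) and 11 without basal library 2 (0.232%, all regions 0.244%). With median-ratio scaling there were 77 (1.62%, all regions 2.84%).

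In the other strains each strain's own open chromatin regions were used. A C57 basal-only site was touched by 3571 of them in BALB, 4664 in NOD, 3797 in PWK and 3448 in SPRET. With the authors' scaling these regions had lower H3K27ac at 24 h, in shares close to their own backgrounds. By the fold rule 207 regions were lower in BALB (5.8%) and 39 higher (1.09%), where all BALB regions had 5.13% and 2.84%. NOD had 266 lower (5.7%) and 63 higher (1.35%), against 5.14% and 3.24%. PWK had 115 lower (3.03%) and 32 higher (0.843%), against 3.01% and 3.1%, and SPRET had 39 lower (1.13%) and 30 higher (0.87%), against 0.939% and 2.64%. Regions whose C57 basal-only site was also basal-only in the strain had 6.76% lower in BALB, 7.78% in NOD, 3.44% in PWK and 1.5% in SPRET, and those whose site kept a 24 h peak there had 5.78%, 6.4%, 3.16% and 1.3%. limma called 31 lower and 16 higher in BALB (0.653% and 1.6% of all regions), 0 and 0 in NOD (0.0% and 0.0566%, with 473 member regions or 10.1% at an unadjusted p under 0.05, all regions 12.4%), 3 and 5 in PWK (0.0482% and 0.487%) and 9 and 7 in SPRET (0.192% and 0.994%). Without 24 h library 1 SPRET had 128 lower regions (3.71%, all regions 2.17%), PWK 262 (6.9%, all regions 6.6%), NOD 545 (11.7%, all regions 9.51%) and BALB 699 (19.6%, all regions 17.3%). With median-ratio scaling PWK had 70 lower and 51 higher regions (all regions 1.61% and 4.24%), BALB had 96 and 63 (2.09% and 4.41%) and NOD had 171 and 83 (3.08% and 4.42%). The SPRET split turned to 26 lower and 35 higher (0.652% and 3.04%).

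PU.1 tags per library were given for the Egr2 genotypes at 4677 sites of 300 bp, which the authors had picked because EGR2 binding rose there at 24 h. A C57 basal-only peak overlapped 71 of them. At these 71 the median PU.1 level in Egr2 fl/fl cells was 11.9 and 11.5 tags in the basal and 13.7 and 13.6 in the IL-4 libraries, and in LyzM-Cre Egr2 fl/fl cells 12.5 and 12.2 against 12.2 and 12.1. The median log2 change was 0.18 in Egr2 fl/fl and 0.15 in LyzM-Cre Egr2 fl/fl cells, beside 0.34 and 0.15 over all sites. With median-ratio scaling the median changes at the 71 sites were -0.08 and 0.02, beside 0.11 and 0.03 over all sites, so their direction in Egr2 fl/fl cells turned with the scaling and none is read from them. limma called 1 site lower and 2 higher in Egr2 fl/fl cells, where 0.0428% and 8.19% of all sites were called. It called 0 lower and 1 higher in LyzM-Cre Egr2 fl/fl cells, against 0.107% and 2.8%. The difference of the response between genotypes passed at no site (0.0% lower and 0.0% higher of all sites), with 3 of the 71 (4.23%) and 9.28% of all sites at an unadjusted p under 0.05.

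PU.1 rose at 2 of the 71 sites, but only the Mgl2 window held most of its basal-only peak, which had no C57 24 h peak. At the Mgl2 site (chr11:70114575-70114875) Egr2 fl/fl cells had 17.9 and 27.6 tags in basal and 68.5 and 63.7 in IL-4 libraries (log2 1.53, SE 0.259, limma adjusted p = 0.00247), and LyzM-Cre Egr2 fl/fl cells had 18.3 and 22.8 against 62.4 and 87.4 (log2 1.8, limma adjusted p = 0.000682). At the Trpm3 intron site (chr19:22979105-22979405) Egr2 fl/fl cells had 40.8 and 31.8 against 101.1 and 89.6 (log2 1.38, SE 0.22, limma adjusted p = 0.00167), and LyzM-Cre Egr2 fl/fl cells had 25.1 and 29.3 against 35.6 and 38.9 (log2 0.44, adjusted p = 0.355). That window reaches only the bases from 22979105 to 22979107 of the basal-only peak, so nearly all of it lies outside the peak. At both sites H3K27ac was also higher at 24 h in C57, as given above. The site that fell, near Gm48629 (chr13:35079678-35079978), had 45.9 and 75.6 tags against 26.6 and 38.3 in Egr2 fl/fl cells (log2 -0.86, limma adjusted p = 0.0483) and 58.8 and 47.2 against 50.1 and 42.9 in LyzM-Cre Egr2 fl/fl cells. At the Cdh1 site (chr8:106612208-106612508) the libraries had 154.7 and 150.7 tags against 201.3 and 189.1 in Egr2 fl/fl cells (log2 0.35, limma adjusted p = 0.0935). In Egr2 fl/fl cells the calls at Mgl2 and Trpm3 were absent without either IL-4 library, the Mgl2 call also without basal library 1, and the Gm48629 call was absent without any single Egr2 fl/fl library or either LyzM-Cre Egr2 fl/fl IL-4 library, while the LyzM-Cre Egr2 fl/fl call at Mgl2 held without each library in turn.

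**Figure D5:**
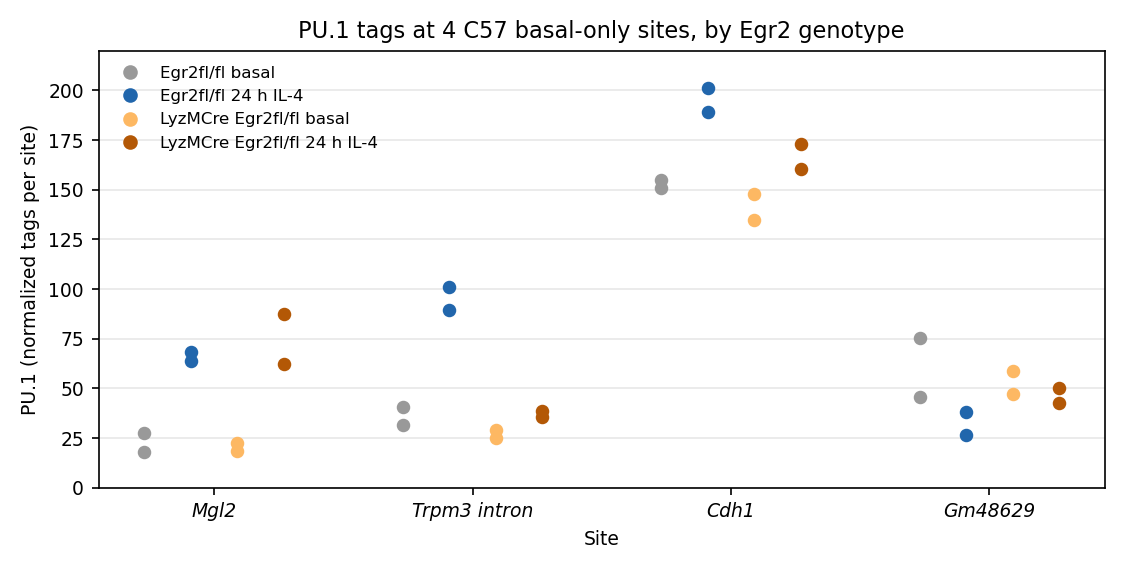
PU.1 tags per library (y axis, normalized tags in 300 bp) in 4 windows that touch C57 basal-only sites, in Egr2 fl/fl and LyzM-Cre Egr2 fl/fl cells, basal and after 24 h of IL-4, with 1 point per library. The Trpm3 window covers only the edge of its basal-only peak. Both IL-4 libraries lie above both basal libraries at Mgl2, Trpm3 and Cdh1 in both genotypes, and below them at Gm48629 in Egr2 fl/fl cells.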

How the data were processed

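ChIP-seq of PU.1, other factors, histone marks and Pol II was measured in BMDMs. As described for the deposited files, alignment by the authors used Bowtie2 and the genome of each strain. They shifted positions to mm10, called 200 bp HOMER peaks per replicate and kept those reproducible by IDR. The score and count of each peak are as deposited, with the scale of the count not stated and 1 list per group. The deposited signal values are tags per region, which the authors scaled to 10000000 tags of each library. Whole reads were recovered from them for 100% of 2899690 values within 0.1 read, and library totals ran from 5825127 to 29050468 tags in 47 libraries, so that 1 normalized tag stood for 0.583 to 2.905 reads.

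Peaks sharing 1 bp or more counted as overlapping. Sites were named by the nearest GENCODE start. log2(tags + 1) was fitted with limma 3.58.1 over all regions of a table, with Benjamini-Hochberg adjustment at 0.05, and edgeR 4.0.16 and DESeq2 1.42.0 on the recovered reads were alternatives, beside other scaling, filters, thresholds and pseudocounts and each library left out. The fold rule took its fold and tag minimums from the paper's methods, which ask for the fold in H3K27ac and Pol II together, whereas here each mark was called alone and 1 tag was added. Replicate numbers served as a block in an alternative fit. For Pol II the correlations of deviations of same-numbered libraries were 0.118, 0.2396 and 0.2068, and the fourth basal library had no partner. The fits were tested on simulated reads first. Of 100 true 4-fold changes, limma recovered 0 for H3K27ac, 0 for H3K4me3, 39 for H3K4me2, 12 for Pol II and 99 for PU.1 in Egr2 fl/fl cells. For H3K27ac the fold rule recovered 93, with 1018 false calls among 67742 regions. A region that did not pass limma in H3K27ac or H3K4me3 is thus not shown to be unchanged. The members and gene lists were chosen with earlier results of these data known.

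Named were the 5 basal-only peaks with the highest score and then count, the 4 largest falls and 4 largest rises of H3K27ac past the fold rule without overlap between groups, the 3 highest-scored sites basal-only in all 5 strains, the 3 with basal peaks of most other factors, the highest-scored on each gene list, up to 4 regions per mark past limma, and the peaks at the edge of the overlap rule, of which the retained one is not reported here. The Egr2 genotype sites and further list genes were chosen after their values were seen. Windows of 200 bp were read from RefSeq GRCm38.p6 for 85915 basal and 17050 gained peaks. The part of depth in the peak lists was not tested, and intervals between replicates rest on 2 libraries a group for most marks.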

Additional observations from a re-analysis of the deposited data

Results flagged for a closer look

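At the Ear-ps2 region starting at 44047973 the 4 basal Pol II libraries of C57 had 0, 0, 5.36 and 0 normalized tags, so that 1 library lay apart from the other 3 with the whole range of the group as its gap (ratio of gap to range 1.0). A gap past the limit used here arises by chance in about 1 in 20 groups of 4 untied values, a rate that does not hold for 3 tied zeros. The 3 IL-4 libraries had 14.7, 13.2 and 18 tags, all above the highest basal library. The cause was not tested.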

How the results depend on the processing

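The set of basal-only sites depended on the overlap rule and on list strength. Their share of the basal list was 15% where at least 0.5 of the basal peak had to be covered, 12.8% where a 24 h peak within 500 bp counted as retained, 16.7% with lists of equal length and 1.77% (760 of 42958) in the upper 0.5 of the list, ordered by score and, since most scores were tied at the maximum, then by count. Overlap with basal peaks of C/EBPβ, EGR2, STAT6 and PPARγ was 4.05%, 2.84%, 7.68% and 1.49% where the factor had to cover at least 0.5 of the PU.1 peak, and 2.35%, 2.15%, 2.38% and 0.893% with the upper 0.5 of each factor list, ordered the same way. With lists of equal length, the share of C57 basal-only sites without a 24 h peak was 50.5% in BALB, 45.2% in NOD, 43.4% in PWK and 32.5% in SPRET. The core GGAAGT lay in 46.2% of windows of 100 bp. With protein-coding genes alone the lists held 50 of 399 (12.5%, macrophage), 27 of 264 (10.2%, NF-κB), 36 of 369 (9.76%, IL-4) and 15 of 81 (18.5%, interferon-stimulated) basal-only peaks.

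Counts by the fold rule are given as lower and higher regions. With median-ratio scaling they were 175 and 93 for H3K27ac, 0 and 15 for H3K4me2, and, for H3K27ac of other strains, 70 and 51 (PWK), 96 and 63 (BALB), 171 and 83 (NOD) and 26 and 35 (SPRET, where the split turned round). At a threshold of 2-fold they were 870 and 89 for H3K27ac, 866 and 2 for H3K4me2, 37 and 40 for H3K4me3, and 203 and 52 for Pol II. For basal-only peaks centred within 150 bp of the region centre they were 228 and 24, 51 and 0, 7 and 4, and 47 and 11 in the same order. Without a filter on low values 121 regions were higher for H3K27ac, 8 for H3K4me2, 138 for H3K4me3 (22 lower) and 34 for Pol II, and with a filter of 32 tags (16 for Pol II) 0 for H3K4me2, 12 for H3K4me3 and 13 for Pol II. With a pseudocount of 5 they were 25 and 0 for H3K4me2, 10 higher for H3K4me3, 28 and 11 for Pol II, 76 lower in PWK, and 23 and 15 in SPRET. With strong basal-only sites alone, an alternative chosen after seeing the data, H3K27ac had 105 and 14.

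Counts past the test also moved. DESeq2 called 88 member regions for H3K27ac (2.1%, all regions 3.06%) and 1 for H3K4me2 (0.0238%, all regions 0.294%). It called 28 for H3K4me3 (0.667%, all regions 0.416%) and 52 for Pol II (1.24%, all regions 1.62%). DESeq2 gave no adjusted p at 18417 regions for H3K27ac, 3941 for H3K4me2, 39445 for H3K4me3 and 17116 for Pol II. Those regions count as not called in its shares. edgeR called 0 for H3K4me2 (all regions 0.149%), 62 for H3K4me3 (1.48%, all regions 0.741%) and 2 for Pol II (0.0477%, all regions 0.353%). With median-ratio scaling limma called 1 for H3K4me2, 14 for Pol II, 77 at 1 h, 71 in BALB, 1 in PWK and 8 in SPRET. With the replicate number as a block limma called 1903 for H3K27ac, 10 for H3K4me2, 1235 for H3K4me3 and 27 for Pol II, 1342, 443 and 308 at 1, 6 and 24 h, and 211, 856, 243 and 175 in BALB, NOD, PWK and SPRET, while the block left the calls of PU.1 in the Egr2 genotypes at 3, 1 and 0. Outside Pol II the correlations of same-numbered libraries ran from 0.02956 to 0.4924, with 0.4702 for H3K27ac, 0.2869 for H3K4me2 and 0.2499 for H3K4me3 in C57. These 3 values are above those of Pol II. No source used here says whether the numbers pair libraries, and the limma counts for H3K27ac and H3K4me3 depended on it.

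Leaving out 1 library at a time gave 476 to 721 lower and 47 to 82 higher regions for H3K27ac, 48 to 1135 and 0 to 4 for H3K4me2, 17 to 37 and 26 to 40 for H3K4me3, and 82 to 129 and 15 to 43 for Pol II. It gave 135 to 699 and 24 to 79 in BALB, 294 to 545 and 65 to 114 in NOD, 152 to 262 and 38 to 78 in PWK, and 47 to 128 and 24 to 60 in SPRET. Calls of limma ranged from 0 to 4 for H3K27ac (4 without basal library 1), 0 to 2875 for H3K4me2, 0 to 0 for H3K4me3 and 0 to 24 for Pol II (24 without basal library 1). They ranged from 11 to 1826 at 1 h, 7 to 336 at 6 h (the highest without 1 h library 1, the lowest without 6 h library 1) and 7 to 225 at 24 h (the highest without 1 h library 1, the lowest without either 6 h library). In the strains they ranged from 13 to 278 in BALB (278 without 24 h library 1), 0 to 73 in NOD (73 without basal library 1), 0 to 40 in PWK (40 without basal library 2) and 0 to 1 in SPRET. For PU.1 they ranged from 0 to 3 in Egr2 fl/fl cells (0 without either IL-4 library), 1 to 1 in LyzM-Cre Egr2 fl/fl cells and 0 to 0 for the difference. No alternative turned the direction of H3K27ac at the 8 regions with the largest differences, of H3K4me2 or Pol II at the regions past limma, or of PU.1 at the 3 called sites of the Egr2 genotypes. With median-ratio scaling the H3K27ac difference changed sign at the Rhob region (-0.25 to 0.09), at Csf1r (-0.29 to 0.05), at Mir107 (-0.04 to 0.28), at Pdcd1lg2 (-0.16 to 0.19) and at both regions of 4930459C07Rik (-0.2 to 0.12 and -0.31 to 0.01), none of which passed a test for H3K27ac. The cause of these shifts was not tested. Most groups had 2 libraries, and the peak lists carry no value for each library, so a weak peak missing at 24 h cannot be told apart from one just under the calling threshold.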
